A study of Mus musculus with 8 samples.

Results

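The mitosis and spindle checkpoint genes examined here are a list of 34 genes that encode the cyclins and kinase that drive a cell into division, the checkpoint that holds it until every chromosome is attached, the kinetochore and spindle proteins that move the chromosomes, and the proteins that split the cell at the end. Probes were taken as members when the RefSeq accession that the array gives them belongs to one of these genes. This found 49 probes for 33 of the 34 genes, out of 31185 genes tested. The rule uses gene names and accessions and no threshold on a measured value. Prc1, which bundles the microtubules of the central spindle, is not analysed here. The kidneys came from E13.5 mouse embryos of a CD1 C57BL/6 mix, and both groups shared strain, age and tissue. One group was wild type, and the other was labelled UB HDAC1,2-/-, that is, with both alleles of the genes for histone deacetylases 1 and 2 lost in the UB, short for ureteric bud, an epithelial tube whose branches become the collecting ducts. The transgene that drives the deletion, the sex of the embryos and any pooling of kidneys are not given in the sources used here. The RNA was of the whole kidney, so it also held the mesenchyme, stroma, vessels and blood cells, in which the label names no deletion. Each of 4 biological replicates paired 1 mutant and 1 wild type RNA on 2 two-colour Agilent arrays with the dyes exchanged, which gave 8 arrays. In such bulk RNA, fewer dividing cells and less of these transcripts per dividing cell cannot be told apart, and the p-values measure the spread between these 4 replicates.

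As background, most of these genes are transcribed in a wave that begins in S phase and peaks at G2 and mitosis, so in a tissue their summed RNA follows the share of cells that are dividing. In the G1 phase and in resting cells they are held down by the DREAM complex, which recruits repressors through a promoter element with the core TTTGAA, called the cell cycle genes homology region (CHR), often a short way downstream of CCAAT boxes bound by NF-Y. The E13.5 kidney is a growing organ in which the UB branches while the cap mesenchyme around its tips renews itself. HDAC1 and HDAC2 are the catalytic subunits of corepressor complexes that remove acetyl groups from histones. The comparison addressed here is whether RNA of the mitotic genes differed between kidneys with and without the deletion.

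The promoters of 5 of the genes described below are printed because they hold both elements that the mitotic wave is known for. They were taken from the members given by replicate below, in order of unadjusted limma p, up to 5. One of these genes was below 0 in every replicate (Top2a), Mki67 and Cdc20 stayed near 0, and Kif11 and Cdk1 read 0.65 and 0.38 in replicate 2. Each is the 250 bases before the start of the gene in RefSeq's annotation of GRCm38.p6, printed 5′ to 3′ in the orientation of the gene. Capitals mark TTTGAA or its reverse complement TTCAAA, and CCAAT or its reverse complement ATTGG, both strands having been searched.
Top2a, chr11:99024190-99024439, minus strand: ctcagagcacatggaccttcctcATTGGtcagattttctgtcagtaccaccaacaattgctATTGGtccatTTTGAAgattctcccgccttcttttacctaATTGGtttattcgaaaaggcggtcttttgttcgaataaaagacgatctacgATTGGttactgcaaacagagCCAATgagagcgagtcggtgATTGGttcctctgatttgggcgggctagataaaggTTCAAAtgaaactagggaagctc
Kif11, chr19:37376132-37376381, plus strand: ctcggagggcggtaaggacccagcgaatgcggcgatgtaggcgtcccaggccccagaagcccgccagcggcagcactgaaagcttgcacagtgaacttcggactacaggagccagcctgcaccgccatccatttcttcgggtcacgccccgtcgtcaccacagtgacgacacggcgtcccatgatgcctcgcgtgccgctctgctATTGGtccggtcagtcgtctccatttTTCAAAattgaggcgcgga
Cdk1, chr10:69352913-69353162, minus strand: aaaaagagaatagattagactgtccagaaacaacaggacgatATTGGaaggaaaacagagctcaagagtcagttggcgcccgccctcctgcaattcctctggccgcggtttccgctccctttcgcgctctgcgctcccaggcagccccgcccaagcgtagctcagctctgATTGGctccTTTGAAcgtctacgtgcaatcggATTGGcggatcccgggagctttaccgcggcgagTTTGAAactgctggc
Mki67, chr7:135716380-135716629, minus strand: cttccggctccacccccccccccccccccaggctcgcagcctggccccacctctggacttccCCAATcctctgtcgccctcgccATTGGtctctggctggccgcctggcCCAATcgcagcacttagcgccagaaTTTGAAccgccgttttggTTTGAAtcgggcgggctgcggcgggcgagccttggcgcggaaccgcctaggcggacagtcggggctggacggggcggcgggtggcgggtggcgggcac
Cdc20, chr4:118437344-118437593, minus strand: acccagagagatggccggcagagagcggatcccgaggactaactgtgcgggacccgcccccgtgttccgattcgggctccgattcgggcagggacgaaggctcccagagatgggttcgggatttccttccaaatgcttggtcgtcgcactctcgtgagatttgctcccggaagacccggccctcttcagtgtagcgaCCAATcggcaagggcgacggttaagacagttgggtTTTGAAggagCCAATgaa
The TTTGAA nearest to the start began at base -23 in Top2a, -19 in Kif11, -15 in Cdk1, -98 in Mki67 and -18 in Cdc20. Cdc20 also held a CCAAT that began at base -8, nearer to the start than its TTTGAA, while in the other promoters printed every CCAAT lay farther upstream than the TTTGAA nearest to the start. Among the 28 members with an entry in this promoter table, 10 held TTTGAA on either strand, a share of 35.7%, against 16.0% of all 32851 promoters of the same length. A CCAAT stood in 22 of the 28, a share of 78.6%, against 33.8% of all promoters. At least 2 of them stood in 14 of the 28, against 10.1% of all promoters. Both elements were present in 10 of the 28, against 5.55% of all promoters. A member was counted if any of its promoter entries held the element, while the share of all promoters counts each entry, so the 2 shares are not of the same unit. A match of letters is a description and shows no binding.

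The direction of every value rests on the dye labels, and it is not settled. Values are log2 ratios, with the RNA labelled mutant in the numerator and that labelled wild type in the denominator. The authors' deposited table of selected genes holds 496 log2 ratios with no stated direction. Of these, 459 equal the sign-turned ratio of the scanner files within 0.01 and 0 equal the ratio as labelled. If that table runs mutant over wild type, every sign below turns, so the groups are named by their labels throughout. None of the 34 members is in that table. Hdac2, of the 2 deleted genes the one analysed here, had ratios of 0.60, 0.60, 0.74 and -0.61 in replicates 1 to 4, so it was higher in the labelled mutant RNA in 3 of 4 replicates and lower in replicate 4. Whether its probe lies within the deleted part is not given, so it does not settle the labels.

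The spots well above background made up between 79.2% and 97.1% of an array channel, and no spot was saturated. The 2 dye orientations of a replicate correlated at 0.22 to 0.58 over genes, and the ratios of different replicates at -0.15 to 0.41. Replicate 2 stood apart: the SD of its ratios over all genes was 0.65, against 0.22 to 0.28 in the other 3. The 15 kidney tissue markers examined were all well above background on all 8 arrays. So were 11 of 12 macrophage markers and 10 of 11 erythroid markers, and most spots of each channel, so this does not check the kidney label. Of 20 UB epithelium markers, 18 were above 0, with a median log2 ratio of 0.64 and a median level, on the channel-centred log2 scale used below, of 2.42 to 2.92 in the labelled mutant RNAs and 1.95 to 2.33 in the labelled wild type RNAs. Of 12 macrophage markers, 10 were below 0, with a median ratio of -0.24, and their levels ran from -0.06 to 0.27 against 0.26 to 0.60. Of 11 erythroid markers, 7 were below 0, with a median ratio of -0.05 and levels of 1.36 to 2.31 against 1.46 to 2.17. The part of these cell types in the ratios of the mitotic genes was not tested.

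All 33 measured mitotic genes were well above background on 8 of 8 arrays in both RNAs, and their RNA differed little between the labels. Such signal was common on these arrays: a filter asking for both channels on all 8 arrays kept 24497 genes, against 31185 tested. The mean log2 ratios of the members ran from -0.29 for Bub1 to 0.41 for Nuf2, which is within 1.4-fold for all 33, the fold that the authors' table was selected at. The median was 0.13, against 0.01 over all genes. Of the 33, 27 were above 0, a share of 81.8% against 52.9% of all genes tested. None passed an adjusted p of 0.05 in limma, where adjusted p-values of the members ran from 0.76 to 0.92, and 0.00962% of all genes, that is 3 genes, passed. The 3 were Fxyd4 and an unnamed transcript, both higher in the labelled mutant RNA, and BC048679, lower.

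At an unadjusted limma p under 0.05, 1 member (Nuf2) was higher, against 3.14% of all genes, and 0 were lower, against 2.61%. The ratio was above 0 in 4 of 4 replicates for 7 members, against 10.7% of all genes. These were Nuf2, Tpx2, Nek2, Kif23, Racgap1, Ube2c and Kif20a. By array, Nuf2 was above 0 on all 8, and the others on 5 (Racgap1) to 7. The ratio was below 0 in 4 of 4 replicates for 1 member, Top2a, against 5.44% of all genes. In no member did the 4 labelled mutant levels all lie above the 4 labelled wild type levels, against 0.779% of all genes, and in none did they all lie below, against 0.529%. The arrays limited how small a difference could be bounded: the 95% interval from limma lay within 1.5-fold in either direction for 24 of the 33 and within 2-fold for all 33. A p that misses the threshold does not show equal levels, and these intervals give the sizes still compatible with each gene under limma's model. That model draws the variance of each gene toward that of all genes, so an interval does not rest on the gene's own replicates alone. For members with uneven replicates, such as Bub1 with an SD of 0.60, it is narrower than those replicates alone would give. The counts within 1.5-fold and 2-fold depend on this.

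**Figure D1:**
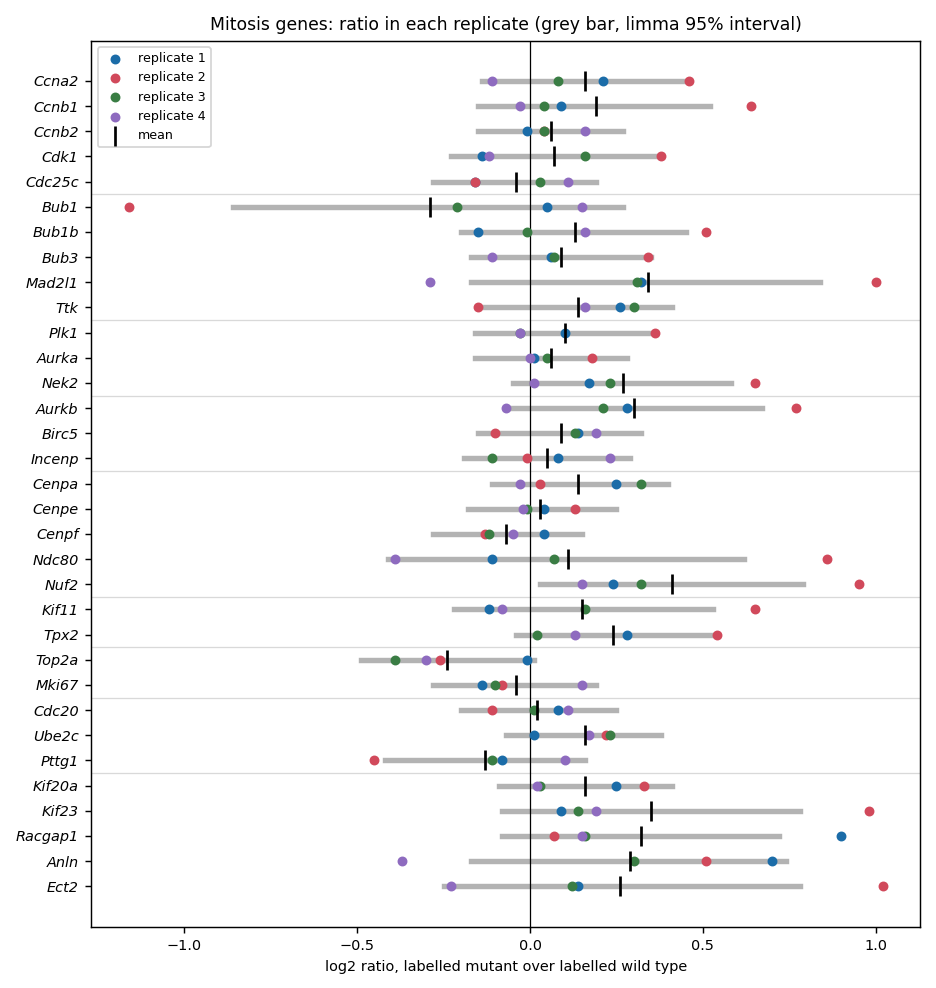
The log2 ratio (labelled mutant over labelled wild type, x axis) of each of the 33 measured mitotic genes (y axis, grouped by role) in the 4 replicates, with the mean as a black tick and the 95% limma interval as a grey bar. The intervals span 0 for every gene but Nuf2, and the points of replicate 2 are the most spread, from -1.16 for Bub1 to 1.02 for Ect2.

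Cyclins A2, B1 and B2 bind the kinase CDK1 to drive entry into mitosis, and CDC25C removes the phosphates that keep that kinase idle. Of these 5 genes, 4 were above 0, with a median of 0.07 and means from -0.04 (Cdc25c) to 0.19 (Ccnb1). Ccnb1, the main mitotic cyclin, had ratios of 0.09, 0.64, 0.04 and -0.03 in replicates 1 to 4, a mean of 0.19 ± 0.31 (SD, n = 4). Its ratio was near 0 in all but replicate 2, and its levels in the labelled mutant RNAs (3.03, 2.98, 3.55 and 3.61, as log2 over the median probe of the array channel) overlapped those in the labelled wild type RNAs (2.94, 2.33, 3.51 and 3.64). A second Ccnb1 probe, which the rule did not choose because its signal was lower, gave the most even ratios of the 3 probes, 0.16, 0.28, 0.28 and 0.21, with a mean of 0.23 ± 0.06, and the remaining probe gave a mean of 0.28 ± 0.31. All 3 Ccnb1 probes thus had means above 0.

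Ccna2, the cyclin of S phase and early mitosis, read 0.21, 0.46, 0.08 and -0.11, a mean of 0.16 ± 0.24. Cdk1 itself read -0.14, 0.38, 0.16 and -0.12, a mean of 0.07 ± 0.25, so its replicates split evenly around 0. The 95% interval for Cdk1 was -0.23 to 0.37, or from 0.85 to 1.29 as a fold. Ccnb2 had the closest replicates of the group, -0.01, 0.04, 0.04 and 0.16, with an interval of 0.90 to 1.21 as a fold.

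The spindle checkpoint delays anaphase until every kinetochore is attached: TTK, BUB1, BUBR1 (Bub1b), BUB3 and MAD2 (Mad2l1) assemble at free kinetochores and block CDC20. Of these 5 genes, 4 were above 0, with a median of 0.13. Mad2l1, the core inhibitor of CDC20, read 0.32, 1.00, 0.31 and -0.29, a mean of 0.34 ± 0.53 (n = 4) and an interval of -0.17 to 0.84. It was higher in 3 replicates and lower in replicate 4. Its level in the labelled wild type RNA of replicate 2 was 1.96, below those of the other 3 labelled wild type RNAs (2.87, 3.36 and 3.85), while the labelled mutant RNAs read 3.18, 2.97, 3.67 and 3.56.

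Bub1, a kinase that recruits other checkpoint proteins to the kinetochore, was the lowest member, with ratios of 0.05, -1.16, -0.21 and 0.15 and a mean of -0.29 ± 0.60. Replicate 2 set that mean, and without it the mean was 0.00. The level of the labelled mutant RNA of replicate 2 was 2.03, against 3.09 to 3.27 in the other 3 labelled mutant RNAs and 3.12 to 3.30 in the 4 labelled wild type RNAs. The other Bub1 probe, which carries the accession of a different transcript of the gene, went the other way in the same replicate, with 0.14, 0.83, 0.30 and -0.14 and a mean of 0.28 ± 0.41. The 2 probes of Bub1 thus differed in sign in all replicates but the first, and the gene has no settled direction here. Bub1b, the checkpoint's inhibitor of the anaphase-promoting complex, read -0.15, 0.51, -0.01 and 0.16, a mean of 0.13 ± 0.29. Bub3 and Ttk had means of 0.09 ± 0.18 and 0.14 ± 0.20.

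Of the 3 other kinases of mitosis, all were above 0, with a median of 0.10. Plk1, which acts from mitotic entry to cytokinesis, read 0.10, 0.36, -0.03 and -0.03, a mean of 0.10 ± 0.18 and an interval of 0.89 to 1.28 as a fold. Aurka, the kinase of the spindle poles, was closest to 0 with 0.06 ± 0.08. Nek2, which separates the centrosomes, was above 0 in 4 of 4 replicates with 0.27 ± 0.27, though replicate 4 read 0.01.

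Aurora B (Aurkb), survivin (Birc5) and INCENP form the chromosomal passenger complex, which corrects faulty attachments and later marks the site of cleavage. All 3 were above 0, with a median of 0.09. Aurkb, the kinase of the complex, read 0.28, 0.77, 0.21 and -0.07, a mean of 0.30 ± 0.35 and an interval of -0.07 to 0.67. Both dye orientations of its first 3 replicates were above 0 and both of replicate 4 were just below it, at -0.07 and -0.08. Its partners were nearer to 0, with 0.09 ± 0.13 for Birc5 and 0.05 ± 0.14 for Incenp.

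At the centromere and kinetochore, 4 of 5 genes were above 0, with a median of 0.11. Nuf2 and NDC80 are partners in the complex that grips the microtubule. Nuf2 was the highest of all 33 members, with ratios of 0.24, 0.95, 0.32 and 0.15 and a mean of 0.41 ± 0.36 (SD, n = 4), an interval of 0.03 to 0.79. It was above 0 on 8 of 8 arrays, the one member with a limma interval that leaves out 0, and that interval rests on the variance drawn toward all genes. Its adjusted p in limma was 0.76, and the exact sign-flip permutation test over the 4 replicates gave a two-sided p of 0.125, the smallest that 4 replicates allow. The labelled mutant levels of Nuf2 were 3.49, 3.31, 3.58 and 3.79 and the labelled wild type levels 3.25, 2.35, 3.26 and 3.64. Each labelled mutant RNA was above its partner, but the groups overlapped, and the labelled wild type RNA of replicate 2 was the lowest of the 8. Without replicate 2 the mean was 0.23.

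Ndc80, its partner, did not follow it in every replicate: it read -0.11, 0.86, 0.07 and -0.39, a mean of 0.11 ± 0.53. Cenpa, the histone H3 variant that marks centromeres, read 0.25, 0.03, 0.32 and -0.03, a mean of 0.14 ± 0.17. In contrast to most members, its 2 highest ratios came from replicates 1 and 3. Cenpe and Cenpf, large kinetochore proteins, were near 0, with 0.03 ± 0.07 and -0.07 ± 0.08. Cenpe has 3 probes, and its dimmer ones were far less even, with SDs of 0.69 and 0.83.

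Both genes of spindle motors and assembly were above 0. Kif11, the kinesin that pushes the spindle poles apart, read -0.12, 0.65, 0.16 and -0.08, a mean of 0.15 ± 0.35, and its dimmer probe gave -0.29 ± 0.59. Tpx2, which nucleates microtubules around chromosomes and activates Aurora A, was above 0 in 4 of 4 replicates with 0.24 ± 0.22.

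Top2a and Mki67, the topoisomerase that untangles sister chromatids and the Ki-67 protein used to stain cycling cells, were the role in which both genes were below 0. Top2a read -0.01, -0.26, -0.39 and -0.30, a mean of -0.24 ± 0.16 (SD, n = 4) with an interval of -0.49 to 0.01, or from 0.71 to 1.01 as a fold. It was the one member below 0 in 4 of 4 replicates, although replicate 1 was at -0.01 and the orientations of replicate 2 disagreed, at -0.87 and 0.36. The adjusted p in limma was 0.76 and the exact sign-flip permutation p was 0.125. Its labelled mutant levels of 3.90, 3.82, 4.00 and 4.00 were narrow, and the labelled wild type levels were 3.91, 4.06, 4.38 and 4.30. The groups nearly separated: only the labelled wild type RNA of replicate 1 lay within the labelled mutant range. The dimmer Top2a probe read -0.07, -0.15, -0.41 and -1.15, a mean of -0.45 ± 0.49, so both probes were below 0 in every replicate.

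Mki67 read -0.14, -0.08, -0.10 and 0.15, a mean of -0.04 ± 0.13, and the interval, 0.82 to 1.14 as a fold, bounds a difference of this proliferation marker to less than the 1.4-fold of the authors' selection. A second Mki67 probe read -0.21, -0.11, -0.20 and 0.14, the same signs in the same replicates. The 2 probes of this gene thus agree that 3 replicates were slightly lower and replicate 4 slightly higher in the labelled mutant RNA.

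CDC20 activates the anaphase-promoting complex, UBE2C is its ubiquitin-conjugating enzyme and securin (Pttg1) is the target whose loss frees separase. Cdc20 had the smallest mean ratio in size of the 33, with 0.08, -0.11, 0.01 and 0.11, a mean of 0.02 ± 0.10 and an interval of 0.87 to 1.19 as a fold. Ube2c was above 0 in 4 of 4 replicates with 0.16 ± 0.10, but its dye orientations differed. With the labelled mutant RNA in Cy5 it read -0.04, 0.06, -0.09 and 0.08, and with it in Cy3 0.06, 0.38, 0.55 and 0.26. Pttg1 read -0.08, -0.45, -0.11 and 0.10, a mean of -0.13 ± 0.23, lower in 3 of 4 replicates.

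The genes of the central spindle and cytokinesis had the highest median of any role, 0.29, and all 5 measured were above 0, with means from 0.16 (Kif20a) to 0.35 (Kif23). Without replicate 2 the median of this role was 0.14, the same as that of the chromosomal passenger complex, so its place as the highest rests on that replicate. Kif23 and RACGAP1 form centralspindlin, which bundles the midzone microtubules and recruits ECT2, the activator of RhoA at the cleavage furrow. Kif23 read 0.09, 0.98, 0.14 and 0.19, a mean of 0.35 ± 0.42. Without replicate 2 its mean was 0.14. Its second probe gave 0.23 ± 0.33, with 0.71 in replicate 2. Racgap1 read 0.90, 0.07, 0.16 and 0.15, a mean of 0.32 ± 0.39, so here it was replicate 1 that stood high.

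The Racgap1 value of replicate 1 was 0.81 and 0.99 in the 2 dye orientations, while those of replicate 2 were -0.73 and 0.87 and cancelled in the mean. The level of Racgap1 in the labelled wild type RNA of replicate 1 was 1.53, against 1.87, 2.65 and 2.70 in the other 3. Its dimmer probe read 0.28, 0.31, 0.10 and -1.16, with a mean of -0.12, so its sign depends on the probe. Anln and Ect2, the scaffold and the RhoA activator of the furrow, had means of 0.29 ± 0.47 and 0.26 ± 0.53, both with a negative replicate 4 (-0.37 and -0.23). Ect2 read 1.02 in replicate 2, and without that replicate the means were 0.21 for Anln and 0.01 for Ect2. Kif20a, a kinesin of the midzone, was above 0 in 4 of 4 replicates with 0.16 ± 0.16. Its dye orientations disagreed in replicate 3 (-0.30 and 0.35) and replicate 4 (-0.15 and 0.19), with the labelled mutant RNA in Cy5 first.

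**Figure D2:**
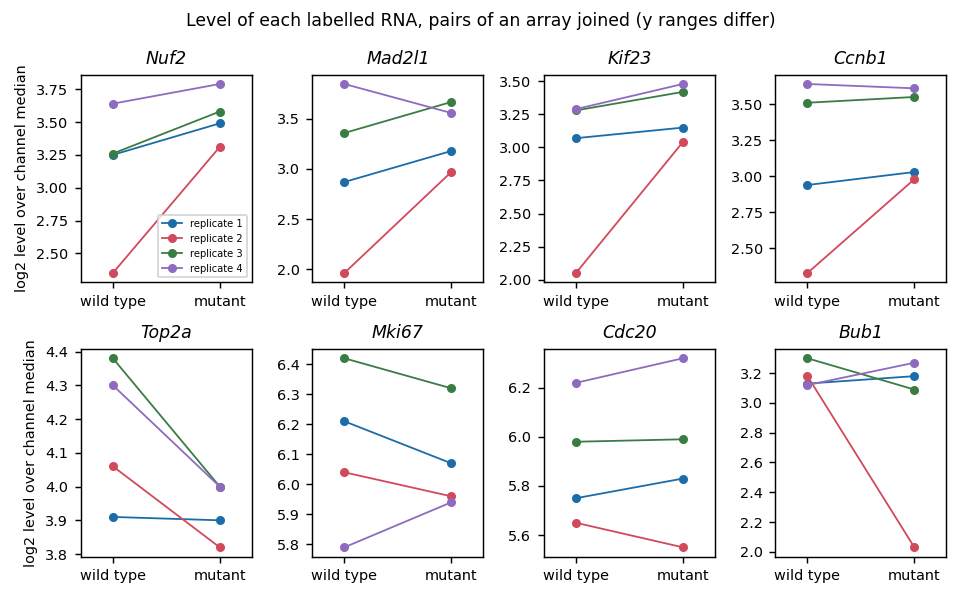
The level of selected mitotic genes (y axis, log2 over the median probe of the array channel) in the 4 labelled mutant and 4 labelled wild type RNAs, with lines joining the 2 RNAs of a replicate. Most of the pairs run close to level. The labelled wild type RNA of replicate 2 lies low for some genes, for example at 2.35 for Nuf2 and 1.96 for Mad2l1. It is not the lowest labelled wild type RNA for Top2a, Mki67 or Bub1, and for Bub1 the labelled mutant RNA of replicate 2 lies low, at 2.03.

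Of the 33 genes, 14 had more than 1 probe. In 8 of them all probes had the same sign of the mean, and in 6 the signs were mixed, namely Anln, Bub1, Cenpe, Cenpf, Kif11 and Racgap1. For each of these a direction of the gene would rest on the choice of probe. For Anln the dimmer probe read -0.36 ± 0.37 and the brighter 0.29 ± 0.47. Brighter genes tended to have smaller and more even ratios. Over the 33 genes, mean log2 signal correlated with the size of the ratio at a Spearman rho of -0.52 and with the SD over replicates at -0.63, a description over genes that share arrays.

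**Figure D3:**
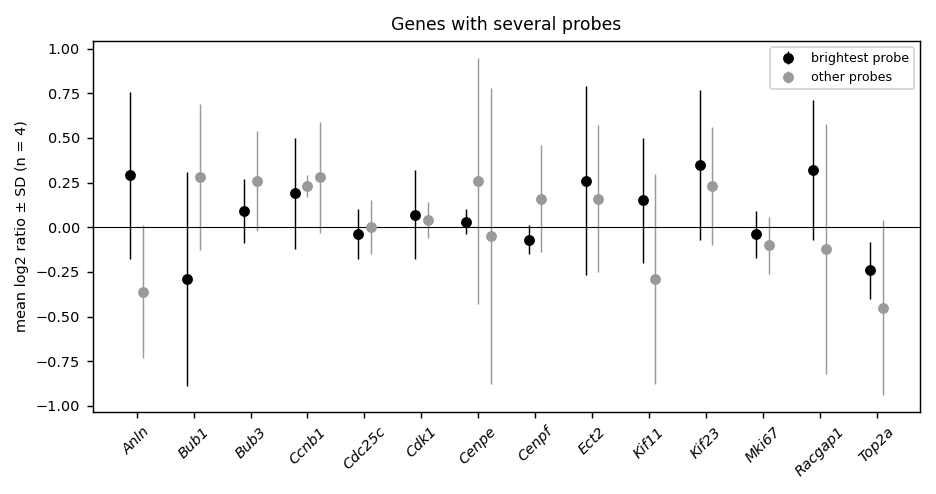
The mean log2 ratio of each probe (points, with the SD over 4 replicates as bars) for the 14 mitotic genes with more than 1 probe. The probes of Bub1 lie on opposite sides of 0, at -0.29 and 0.28, and those of Ccnb1 all lie above it.

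The small shift of the members above 0 was not even over replicates. The median ratio of the members was 0.08, 0.33, 0.07 and 0.01 in replicates 1 to 4, and 24, 23, 24 and 17 of the 33 were above 0. The share of all genes above 0 was 49.9%, 55.4%, 54.5% and 61.2% in the same replicates. By array, the member medians were 0.09 and 0.08 in replicate 1, 0.31 and 0.37 in replicate 2, 0.08 and 0.11 in replicate 3, and 0.03 and -0.02 in replicate 4, with the labelled mutant RNA in Cy5 first. Both dye orientations thus gave replicate 2 the highest median.

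In replicate 2, 13 of the 33 members, or 39.4%, had a ratio over 0.5 in size, against 37.1% of all genes, a like share. The counts were 2, 0 and 0 in replicates 1, 3 and 4, where the shares of all genes were 4.05%, 7.23% and 5.03%. Replicate 2 held the highest of the 4 ratios for 18 of the 33 members and for 43.8% of all genes. The level was the lowest of all 8 RNAs in the labelled wild type RNA of replicate 2 for 21 of the 33 members, a share of 63.6% against 38.1% of all genes. The member median level was 3.18 in that RNA, against 3.62, 4.03 and 4.14 in the other labelled wild type RNAs and 3.83, 3.72, 4.00 and 4.00 in the labelled mutant RNAs. Without replicate 2, the median ratio of the members was 0.06 and 23 of 33 were above 0, against 58.3% of all genes. The medians by role were then 0.03 for the cyclins and their kinase, 0.01 for the spindle checkpoint, 0.02 for the mitotic kinases, 0.00 for the centromere and kinetochore, 0.07 for anaphase onset and -0.13 for Top2a and Mki67. They were 0.14 for the chromosomal passenger complex, 0.14 for the central spindle and cytokinesis and 0.06 for spindle motors and assembly. The means were then 0.11 for Mad2l1, 0.14 for Aurkb, 0.03 for Ccnb1 and -0.14 for Ndc80. Other means rose, to 0.40 for Racgap1 and 0.24 for Ttk. Replicates 1 and 2 were on 1 slide and replicates 3 and 4 on the other: the median was 0.18 on the first and 0.02 on the second.

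**Figure D4:**
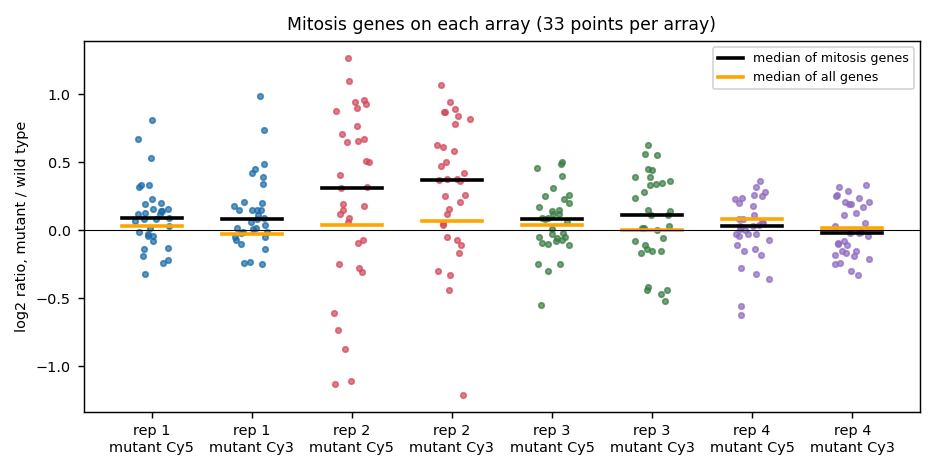
The log2 ratios of the 33 mitotic genes on each of the 8 arrays (x axis, 2 dye orientations per replicate), with the member median marked beside that of all genes. The member medians are 0.31 and 0.37 on the arrays of replicate 2 and between -0.02 and 0.11 on the other 6.

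Other genes of mitosis were mostly above 0 too, as were 52.9% of all genes tested. Of 118 further genes measured in 6 groups (G2/M regulators, kinetochore and checkpoint, spindle and kinesins, condensin, cohesin and separase, the anaphase-promoting complex, and cytokinesis), 84 were above 0, with a median of 0.10. None passed an adjusted p of 0.05 in limma, and at an unadjusted p under 0.05, 4 were higher and 5 lower, beside 3.14% and 2.61% of all genes. The 4 were Kif15, a spindle kinesin that works beside Kif11, with 0.49 ± 0.25 and ratios of 0.25, 0.75, 0.31 and 0.64, and Pbk, Ska3 and Anapc15, at 0.41 ± 0.26, 0.42 ± 0.42 and 0.25 ± 0.11. The 5 lower were Sgo2a, a protector of centromere cohesion, at -0.60 ± 0.46, the microtubule polymerase Ckap5 at -0.94 ± 0.89, the cohesin release factor Wapl at -0.33 ± 0.16, the condensin subunit Smc2 at -0.63 ± 0.67 and Mical3 at -0.37 ± 0.34. All of these but Ckap5, which read 0.06, -1.66, -0.44 and -1.71, had the same sign in 4 of 4 replicates. Of these 118 genes, 2 are in the authors' deposited table. Kif15 stands there at -0.489, the size of the scanner ratio with the sign turned, and Numa1, a spindle pole protein, at 0.509, while its brightest probe here read -0.06 ± 0.21.

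The median of each of these 6 groups was above 0, from 0.03 for 15 anaphase-promoting complex genes to 0.18 for 32 kinetochore and checkpoint genes. In replicate 2 those groups had medians of 0.07 to 0.41, and in replicate 4 of -0.14 to 0.15. The genes of DNA replication and G1/S, which act earlier in the cycle, had 26 of 29 above 0, beside 52.9% of all genes. Their median was 0.10, with replicate medians of 0.01, 0.21, 0.11 and 0.06. Pola1, the catalytic subunit of the primase-polymerase, was the one of these at an unadjusted p under 0.05, with ratios of 0.53, 0.47, 0.17 and 0.13 and a mean of 0.33 ± 0.20. No gene of these lists passed the adjusted threshold.

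Median ratios were lower in members with each promoter element than in those without it, and all lay well inside the range of member means, -0.29 to 0.41. The 9 measured members with TTTGAA in the 250 bases had a median ratio of 0.07 and the 18 without it a median of 0.13. With CCAAT the median was 0.10 over 21 members, and without it 0.20 over 6. With at least 2 CCAAT it was 0.06 over 14 members, and otherwise 0.15 over 13. Of the genes printed above, Top2a, with 2 TTTGAA and 6 CCAAT on either strand, had the lowest mean ratio, -0.24 ± 0.16. Kif11, with 1 of each, had the highest, 0.15 ± 0.35. These are descriptions with no test, and no match says only that the letters are not in this window.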

How the data were processed

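Total RNA (0.5 µg per sample) of E13.5 kidneys was hybridised on two-colour Agilent arrays, 8 in all. The authors scanned them and extracted spots with Feature Extraction 10.5.1.1, per the file headers. The deposited log10 ratio sets the red processed signal (Cy5) over the green one (Cy3). The deposited intensity columns hold the processed signals, from which the scanner software had subtracted background and evened out the dyes, and the median spot and background signals. Flags that the authors deposited mark outlying, saturated and well-above-background spots as 0 or 1 and have no unit. A table that the authors deposited gives log2 ratios of genes selected at 1.4-fold with MeV 4.9, per its name, with no stated direction. The dye labels were followed.

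The members and gene lists were chosen with earlier results of these data known. Log ratios were multiplied to the log2 scale and turned to labelled mutant over labelled wild type. Outlying spots were left out, spots of a probe averaged, and the 2 arrays of a replicate averaged, so that n is 4. Of 41174 probes, 39522 passed the filter (1 channel or both well above background on 4 arrays or more). The brightest probe stood for its gene, with values in at least 3 replicates, which left 31185 genes, 17114 of them named through RefSeq accessions of GRCm38.p6. Ratios were tested against 0, two-sided, with limma 3.58.1 (lmFit, eBayes) in R 4.3.3 and Benjamini-Hochberg adjustment over all genes. The script was tested on simulated data. Levels per RNA are log2 processed signals less the median probe of the channel, averaged over both dyes, and are compared within a probe only. No genome came with the files, so the only positions given are those of the printed promoters, from the RefSeq table of GRCm38.p6. The number of arrays limits the precision.

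Members given by replicate were those at an unadjusted p under 0.05, the 3 highest, the 3 lowest and a fixed set of 13. From each other list up to 3 genes, those of smallest p, were named. Replicate numbers pair RNAs that share arrays: within the 4 pairs, deviations from the group means correlated at 0.572 to 0.781 over genes, and the ratio keeps this pairing by array. Alternatives were normexp (offset 50) with loess, median centring, 2 filters on dim probes, the mean of all probes, a replicate block, an unpaired fit, the slide, each dye orientation, array weights and leaving out each replicate.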

Additional observations from a re-analysis of the deposited data

Results flagged for a closer look

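Of 52 groups of 4 values checked (the ratio, the labelled mutant level and the labelled wild type level of the 17 members that the rule names, and the median ratio of the members), 3 had a value far from the other 3 by Dixon's criterion, which chance meets in about 1 in 20 groups. The Kif23 ratio of replicate 2 was 0.98, against 0.09, 0.14 and 0.19. The Racgap1 ratio of replicate 1 was 0.90, against 0.07, 0.16 and 0.15. The Bub1 level in the labelled mutant RNA of replicate 2 was 2.03, against 3.18, 3.09 and 3.27, while the other Bub1 probe had a ratio of 0.83 in that replicate.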

How the results depend on the processing

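No member passed an adjusted p of 0.05 in limma under any of the 17 alternatives. The count of members above 0, of 33, lay between 22 and 27 under all of them, and the median ratio between 0.02 (slide 2 alone) and 0.18 (slide 1 alone). The count of 22 was on slide 2 alone, where 61.3% of all genes were above 0, a share not far from that of the members. Scaling moved the share of all genes above 0: with normexp and loess, 25 members were above 0 beside 44.6% of all genes, and with median centring 25 beside 44.7%. Of 289 values of the 17 members that the rule names, 271 kept their sign and 18 did not, and 7 of the 17 members kept it under all alternatives. The replicate block, the slide as a covariate and the 2 filters on dim probes gave the same means as the main fit. The unpaired fit barely moved them, so the sign could hardly turn in these settings and the 271 include them. Bub1 is among the 7, though it was at -0.003 without replicate 2 and -0.005 with the mean of all probes.

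The number of genes past the adjusted threshold, 3, became 0 with normexp and loess, 0 without the filter on dim probes, 13 with the strict filter, 5 with the mean of all probes, 1 in the unpaired fit, 1 with slide as a covariate, 0 and 721 on slides 1 and 2 alone, 1 and 22 with the labelled mutant in Cy5 or Cy3 alone, and 229 with array weights. With the replicate block over the 8 arrays, paired by replicate, it was 107. Members at an unadjusted limma p under 0.05, of which there was 1 beside 5.75% of all genes, became 5 with normexp and loess (5.93% of all genes). They became 2 with median centring (5.86%), 2 with the mean of all probes (5.72%) and 4 with the replicate block (7.53%). There were 0 in the unpaired fit (1.39%) and 0 on slide 1 (1.64%). With the labelled mutant in Cy3 alone there were 10 (15.2%), and with array weights 6 (15.6%), settings in which the share of all genes rose too. The count stayed 1 but the gene changed on slide 2 alone (12.8% of all genes) and without replicate 1 (6.45%), where it was Top2a and not Nuf2. With the labelled mutant in Cy5 alone (5.96%) it was Ccnb1. The causes were not tested. Leaving out a replicate gave 0 to 11 genes past the adjusted threshold (11 without replicate 2). It gave 0 to 4 members at an unadjusted limma p under 0.05. These were 0 without replicate 3 (2.24% of all genes), 2 without replicate 2 (7.95%) and 4 without replicate 4 (4.32%).

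Signs turned for Ccna2 (-0.018), Mki67 (0.022) and Plk1 (-0.028) on slide 2 alone. With the labelled mutant in Cy3 alone they turned for Ccnb1 (-0.080), Cdc20 (-0.081), Cdk1 (-0.045), Mki67 (0.152) and Plk1 (-0.054), and in Cy5 alone for Pttg1 (0.016) and Racgap1 (-0.002). Cdc20 was also at -0.014 with median centring, -0.073 with normexp and loess and -0.014 on slide 1, and Kif11 at -0.071 with the mean of all probes. Leaving out a replicate gave ranges of -0.001 to 0.220 for Bub1b, -0.006 to 0.066 for Cdc20, -0.033 to 0.139 for Cdk1 and -0.014 to 0.243 for Kif11. All these are smaller than the SD of the replicates of the gene, with the exception of Mki67 in Cy3 alone. Differences under about 1.5-fold are near the limit that 4 replicates can bound for most members.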

Other observations

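The 2 dye orientations of a replicate hybridise the same RNAs, yet for some members they differed in sign. Ttk read -1.13 and 0.82 in replicate 2, with the labelled mutant RNA in Cy5 first. Mki67 read -0.55 and 0.34, and Ccnb1 0.50 and -0.42, in replicate 3. Cenpf was above 0 with the labelled mutant RNA in Cy5 in all 4 replicates (0.33, 0.18, 0.20 and 0.23) and below 0 with it in Cy3 in all 4 (-0.25, -0.44, -0.44 and -0.33), so its mean of -0.07 is a balance of opposite readings. Nuf2 was above 0 in both orientations of every replicate.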
